A study of Mus musculus with 8 samples.

Results

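The subcortical maternal complex is a protein assembly of the oocyte and early embryo, built from products of maternal effect genes. Its components lie beneath the plasma membrane of the egg, and mouse embryos whose mothers lack a core component usually arrest during the first cleavages. Embryos at this time live on messengers that the oocyte made while it grew, and a messenger can be stored in ribonucleoprotein particles or loaded onto ribosomes. The 6 genes described here code for NLRP5 (also called MATER), OOEP (FLOPED), TLE6, KHDC3 (FILIA), PADI6 and ZBED3. They were chosen by name from a table of 25574 mouse genes. The rows of 5 of the 6 carried the listed symbol, and Khdc3 was found under its older symbol, 2410004A20Rik, which is a RefSeq synonym of Khdc3 at the same place on chromosome 9. All 6 were among the 14292 genes tested, which had a mean above 0.1 FPKM (fragments per kilobase of gene, scaled to the reads of the library) in at least 1 dataset.

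The libraries were made from oocytes of CD1 mice, 8 weeks old, which had received 5 IU of pregnant mare serum gonadotropin 46 h earlier. Fully grown oocytes were collected in IBMX, which holds meiosis at the germinal vesicle stage, then denuded and cultured without it for 180 min. Oocytes that had undergone nuclear envelope breakdown (NEBD) were selected partway through this culture. They were exposed to cycloheximide, which freezes ribosomes on messengers, at 0.1 mg/ml for 10 min, and 200 pooled oocytes were lysed for each sucrose gradient. RNA of the non-polysomal fractions (NP dataset, 4 libraries) and of the polysomal fractions (P dataset, 4 libraries) was sequenced, so both datasets share the strain, the hormone, the culture and the drug. The NP pool covered the ribosomal subunits and single ribosomes, and the first fraction of the gradient was left out of both pools. No untreated control or other stage is part of the comparison. It sets the level of a gene in P, relative to the other genes of that library, beside its level in NP. The values do not give the share of the molecules of a gene that lay in each pool. The study describes the 4 replicates of each dataset as independent biological replicates. The NP and P pools came from the same 4 gradients, so NP and P libraries are not independent of each other. The tests below took the libraries as unpaired, except for a fit with replicate numbers as a block, given near the end.

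A library of the NP dataset listed 11703 to 13753 genes above 0 and one of the P dataset 9139 to 11339, and the median FPKM of the tested genes was 3.41 to 5.55 in NP against 1.05 to 3.02 in P. All 11 oocyte markers were found, with summed levels of 7336 to 14745 FPKM in NP and 9271 to 30853 in P. Of 16 markers of granulosa and cumulus cells, the cells that surround the oocyte, 5 were listed at 0 in every library (Amhr2, Inhba, Foxl2, Has2 and Ptx3). A mean above 1 FPKM in at least 1 dataset was found for 6 of the 16. Cyp19a1 reached 75.2 FPKM in NP replicate 4 and 62.6 in P replicate 2. Nr5a2 reached 61.4 in NP replicate 3 and 35.9 in P replicate 3, and Cyp11a1 46.4 in NP replicate 4 and 17.9 in P replicate 4. The summed level of the 16 was 15.3 to 145 FPKM in NP and 20.5 to 64.0 in P. Blood markers were listed at 0 for all 4 genes found, and the 6 markers of theca and stroma summed to at most 1.78 FPKM in any library.

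The 3′ ends of the messengers are shown first, because loading of stored messengers during meiotic maturation is known to depend on sequences there. The cytoplasmic polyadenylation element (CPE, searched as TTTTAT or TTTTAAT on the sense strand) recruits CPEB proteins, and the polyadenylation hexamer (AATAAA or ATTAAA) directs the formation of the poly(A) tail. Both were searched in a single GENCODE M21 transcript of each gene on GRCm38. An APPRIS principal transcript was preferred, then the longest coding sequence, then the longest transcript. The CPE was searched in the last 120 bases of the 3′ UTR and the hexamer in the last 50. Of 11758 tested genes with a 3′ UTR of at least 120 bases, 21.7% held a CPE, 79.1% a hexamer and 17.8% both. For the 5 members with a hexamer, a stretch of 30 bases around it, near the end of the 3′ UTR, is printed 5′ to 3′, with the hexamer and any CPE in capitals:
Nlrp5: tagcaagaatgaAATAAAcacagcatttag
Tle6: cgagttgcgtgtAATAAAacaattgaaatg
Khdc3: ttaaagtattctAATAAAaaaaaaattgca
Padi6: tgccatagagccAATAAAgcatggtattct
Zbed3: ccttttttttTTTTAATAAAcTTTTATtta
These stretches lie on GRCm38 at chr7:23441887-23441916 (plus strand), chr10:81590907-81590936 (minus), chr9:73104409-73104438 (plus), chr4:140727361-140727390 (minus) and chr13:95337807-95337836 (plus), in the order printed.

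Zbed3 was the only member of the 6 with a CPE in the searched window. It held 2, and 1 of them, TTTTAAT, starts 4 bases before the hexamer and overlaps it, while the TTTTAT lies after the hexamer. Its whole 3′ UTR of 1085 bases held 5 CPE motifs. Ooep, with the longest 3′ UTR of the 6 (1446 bases) and the shortest coding sequence (164 codons), had neither a hexamer nor a CPE in these windows. They lie at the annotated end of the chosen transcript, and whether the messenger of the oocyte ends there was not tested. The 3′ UTRs of Nlrp5, Tle6, Padi6 and Khdc3 were 109, 130, 221 and 246 bases long, all under the median of 1069 bases of those 11758 genes, and those of Zbed3 and Ooep were above it. The 3′ UTR of Nlrp5 is shorter than the window and was searched whole. The proteins also differ in size, the longest being NLRP5 with 1111 codons, followed by PADI6 with 682, TLE6 with 581, KHDC3 with 440 and ZBED3 with 228. A match of letters is a description of the sequence and does not show that a factor binds there.

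Messengers of the complex were abundant in both datasets, and no member passed the adjusted threshold between P and NP. Together the 6 genes held 0.630% to 1.11% of the summed FPKM of an NP library and 0.451% to 1.63% of that of a P library. Khdc3, Nlrp5 and Padi6 had a mean FPKM more than 2-fold higher in P, as did 16.9% of all tested genes, and Zbed3 had one more than 2-fold higher in NP, as did 40.6% of all tested genes. Padi6 was under this fold without P replicate 1, P replicate 4 or NP replicate 3 (ratios of P over NP of 1.79, 1.68 and 1.98), and Nlrp5 without P replicate 1. Zbed3 was under it without NP replicate 4, P replicate 1 or P replicate 3 (ratios of P over NP of 0.576, 0.576 and 0.560). As a ratio of geometric means it was 1.71 for Padi6 and 1.66 for Nlrp5. By limma with Benjamini-Hochberg adjustment over all tested genes, 0 of the 6 members passed an adjusted p of 0.1, and 0 passed an unadjusted p of 0.05. The unadjusted count depended on the setting for Khdc3 and Zbed3, with unadjusted p of 0.0484 and 0.0406 in limma with a pseudocount of 0.1, and for Nlrp5 and Padi6 it did so under median centring (limma, unadjusted p = 0.0282 and 0.0232). The same test called 3 genes in all, 0.021% of those tested, each higher in NP, and at the unadjusted threshold 0.476% of genes had the higher level in P and 9.47% had it in NP. The values of all 6 members overlapped between the datasets, while 0.357% of tested genes had every P library above every NP library and 5.92% the reverse.

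**Figure D1:**
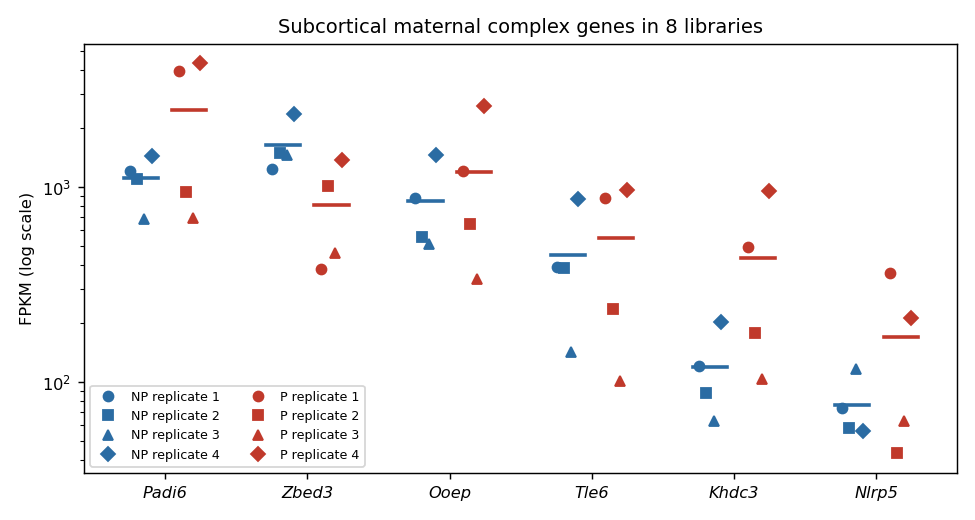
FPKM of the 6 subcortical maternal complex genes in each NP and P library, on a log scale, with 1 point per library and a line at the mean of each dataset. The datasets overlap for every gene, and the P libraries spread more widely than the NP libraries, the highest P library being 3.58-fold (Zbed3) to 9.50-fold (Tle6) above the lowest, against 1.91-fold (Zbed3) to 6.08-fold (Tle6) in NP.

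Padi6, a member of the peptidylarginine deiminase family that is needed for the cytoplasmic lattices of the oocyte, was the most abundant complex messenger in P. It lies on chromosome 4 from 140727355 to 140742643 on the minus strand of GRCm38. Its FPKM was 1207, 1104, 684 and 1434 in NP replicates 1 to 4 and 3953, 944, 696 and 4301 in P replicates 1 to 4. P replicates 1 and 4 lay above every NP library, and P replicates 2 and 3 lay within the NP range. The mean was 1107 ± 314 in NP and 2473 ± 1917 in P (SD, n = 4 each), and by mean FPKM Padi6 ranked 55 of all genes in NP and 19 in P. The log2 fold change of P over NP, on the log2(FPKM + 1) scale used throughout, was 0.77 with a standard error of 0.67 (limma, adjusted p = 0.667).

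Zbed3, which codes for a zinc finger protein that binds axin and is a partner of the complex, was the only member with a negative log2 fold change. The gene (chromosome 13, 95325237 to 95337841, plus strand) had 1244, 1498, 1454 and 2378 FPKM in NP replicates 1 to 4 and 382, 1013, 459 and 1368 in P replicates 1 to 4. P replicates 1, 2 and 3 lay below every NP library, and P replicate 4 lay inside the NP range. The means were 1643 ± 502 in NP and 805 ± 468 in P (SD, n = 4 each), so that NP was 2.04-fold higher, and the log2 fold change was −1.18 with a standard error of 0.57 (limma, unadjusted p = 0.0570, adjusted p = 0.513). An exact permutation test of log2(FPKM + 1) gave p = 0.0571 (2-sided), where 0.0286 is the smallest p that 4 libraries against 4 allow. Zbed3 ranked 25 in NP, the first of the complex, and 79 in P. It was also the only member with a CPE at the 3′ end printed above, and a relation between the sequence and the levels was not tested.

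Khdc3, a KH-domain protein that joins the complex through its partners, had the largest ratio of means of P over NP in the complex. Its row on chromosome 9 (73101836 to 73104443, plus strand) held 121, 87.6, 62.7 and 204 FPKM in NP replicates 1 to 4 and 491, 178, 104 and 959 in P replicates 1 to 4. P replicates 1 and 4 were above every NP library, and P replicates 2 and 3 fell inside the NP range. The mean was 119 ± 61.6 in NP and 433 ± 389 in P (SD, n = 4 each), a ratio of 3.65, and the ratio was 2.17 without P replicate 4. The log2 fold change was 1.50 with a standard error of 0.71 (limma, unadjusted p = 0.0548, adjusted p = 0.509), higher than that of 98.8% of tested genes. The gene model Gm20509 overlaps Khdc3 on the same strand (73103729 to 73117920) and was listed at 16.8% to 53.9% of the FPKM of Khdc3 in a library, with a log2 fold change of 1.63. Reads of the overlap cannot be divided between the 2 genes here, so the level of Khdc3 is uncertain.

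Nlrp5, which codes for a NACHT and leucine-rich repeat protein of the core of the complex, had the lowest level of the 6 in both datasets. The gene spans chromosome 7 from 23385889 to 23441922 on the plus strand. Its FPKM was 73.1, 58.0, 116 and 56.1 in NP replicates 1 to 4 and 362, 43.0, 63.3 and 214 in P replicates 1 to 4. P replicates 1 and 4 exceeded every NP library, P replicate 2 lay below them all, and P replicate 3 lay within their range. The mean was 75.8 ± 27.8 in NP and 171 ± 149 in P (SD, n = 4 each), a ratio of 2.25 that became 1.41 without P replicate 1. The log2 fold change was 0.73 with a standard error of 0.70 (limma, adjusted p = 0.690).

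Ooep and Tle6, whose proteins bind each other and NLRP5 in the core of the complex, had the log2 fold changes nearest to 0 in the complex. Ooep (chromosome 9, 78376109 to 78378725, minus strand) was listed at 880.0, 551, 509 and 1459 FPKM in NP replicates 1 to 4 and at 1209, 647, 336 and 2604 in P replicates 1 to 4. Tle6 (chromosome 10, 81590904 to 81601073, minus strand) was listed at 390.5, 382, 143 and 867 FPKM in NP and at 880.2, 236, 101 and 963 in P, in the same order of replicates. For both genes P replicate 4 was the highest library and P replicate 3 the lowest. The log2 fold change was 0.23 for Ooep (standard error 0.67, limma adjusted p = 0.889) and 0.03 for Tle6 (standard error 0.78, limma adjusted p = 0.987). Neither direction was stable, since without P replicate 4 the log2 fold change was −0.27 for Ooep and −0.41 for Tle6, and for Tle6 it was −0.37 without P replicate 1 and −0.42 without NP replicate 3. The ratio of mean P to mean NP of Ooep was 1.41 with all libraries and 0.860 without P replicate 4.

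**Figure D2:**
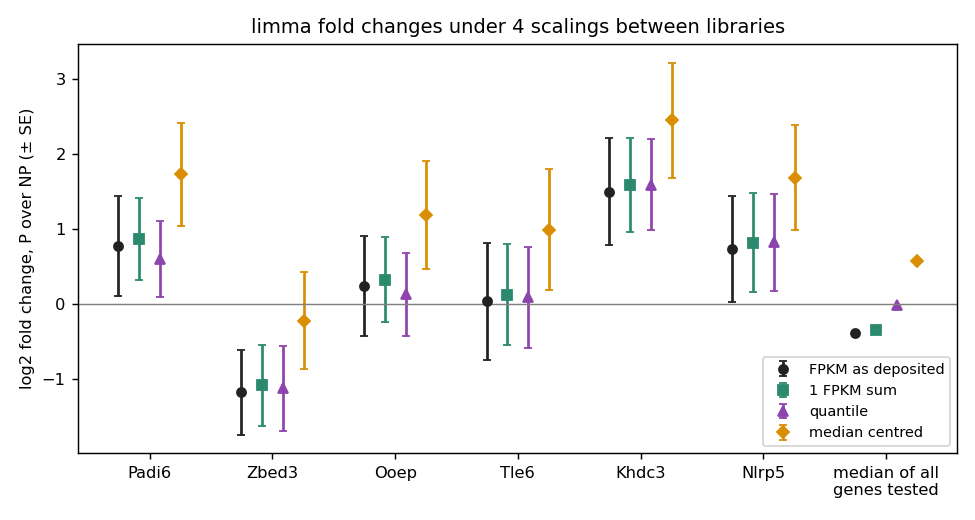
Log2 fold change of P over NP for each member on the log2(FPKM + 1) scale, with bars of 1 standard error from limma (n = 4 libraries per dataset), under 4 scalings between libraries, and at the right the median of all tested genes under each. With the deposited FPKM Zbed3 is at −1.18 and Khdc3 at 1.50, the other members lie between 0.03 and 0.77, and median centring lifts every member together with the median of all genes.

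The median log2 fold change of the 6 members was 0.48, and that of all 14292 tested genes was −0.39. It was 0.04 without P replicate 4, 0.15 without P replicate 1, 0.29 without NP replicate 3, 0.74 without P replicate 2 and 0.87 without P replicate 3. Log2 fold changes above 0 were found for 5 of the 6 members and for 28.6% of all tested genes. Among the 1341 genes with a mean above 100 FPKM in at least 1 dataset, which include all 6 members, the median was −0.37 and 35.1% were above 0. Under quantile normalization, median centring and scaling of each library to 1 FPKM sum, Zbed3 remained below 0 and the other 5 members above it, while median centring moved the median of all genes to 0.57, above the −0.22 of Zbed3.

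The spread of the members between P libraries had a common order. P replicates 1 and 4 both exceeded P replicates 2 and 3 for 5 of the 6 members, an order found for 32.0% of the 1341 genes above 100 FPKM. Zbed3 was the exception, with its lowest value in P replicate 1. The summed FPKM of all genes, 623218 and 637393 in P replicates 1 and 4, was also higher than the 440899 and 390367 in replicates 2 and 3, and its part in the order was not tested. The coefficient of variation in NP ranged from 28.4% for Padi6 to 68.1% for Tle6, and in P from 58.2% for Zbed3 to 89.8% for Khdc3. For each member it was larger in P than in NP. Counting error was small beside this spread, since the lowest value of a member rested on 234 recovered reads or more (an error of 6.54% for Khdc3, the largest), although reads of amplified cDNA are not independent molecules.

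The order of the levels is given per kilobase of gene, as FPKM. In NP the means ran, from high to low, in the order Zbed3, Padi6, Ooep, Tle6, Khdc3 and Nlrp5, and in P in the order Padi6, Ooep, Zbed3, Tle6, Khdc3 and Nlrp5. Some neighbours kept their place in every library and others did not. Zbed3 was above Padi6 in all 4 NP libraries, and Padi6 was above Zbed3 in 3 of 4 P libraries. Ooep exceeded Tle6 in all 8 libraries. Tle6 exceeded Khdc3 in all 4 NP libraries and in 3 of 4 P libraries, while Nlrp5 was above Khdc3 in 1 NP library and in 0 P libraries. Ooep and Padi6 were not separated in NP, where Ooep was the higher in 1 of 4 libraries, but Padi6 was above Ooep in all 4 P libraries.

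By the mean share of the FPKM summed over the 6 genes, Padi6 and Zbed3 exchanged the first place between the datasets. In P replicate 2 Zbed3 was still first, with 33.1% against 30.8% for Padi6. Zbed3 made up 39.7% ± 7.22 of the sum in NP and 19.4% ± 12.5 in P (SD, n = 4 each), with a range of 5.25% to 33.1% in P that overlapped the 31.8% to 49.0% in NP. Padi6 made up 26.6% ± 4.45 in NP and 41.5% ± 9.69 in P. Its highest NP share (30.83%) and its lowest P share (30.84%) were nearly equal. Khdc3 held 2.69% ± 0.526 in NP, at most 3.19%, and 6.92% ± 1.58 in P, at least 5.82%. The uncertainty of its row, which Gm20509 overlaps, applies to this share, and a comparable figure over all genes was not computed. The shares of Ooep (19.3% ± 3.91 and 20.5% ± 3.55), Tle6 (9.68% ± 3.62 and 8.70% ± 2.68) and Nlrp5 (2.06% ± 1.30 and 3.01% ± 1.60) differed between NP and P by less than their spread. Shares of one sum are not independent, so a larger share of 1 gene lowers the others.

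**Figure D3:**
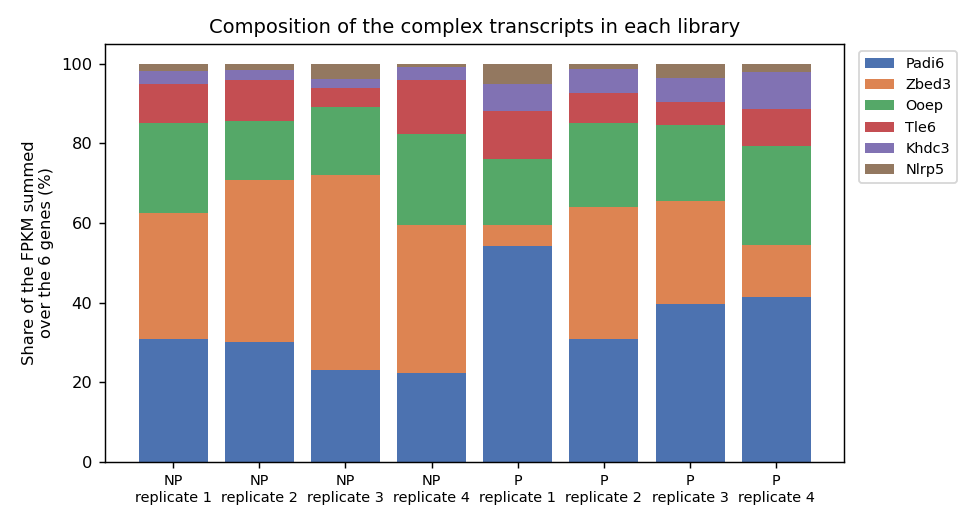
Share of each member in the FPKM summed over the 6 genes, in percent, as 1 stacked bar per library. Zbed3 takes 31.8% to 49.0% of the NP bars and 5.25% to 33.1% of the P bars, and Khdc3 takes at most 3.19% in NP and at least 5.82% in P. The level of Khdc3 is uncertain because Gm20509 overlaps it.

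Ratios of the FPKM of 2 members within a library do not depend on a factor by which the whole library was scaled. They were computed for all 15 pairs as differences of log2(FPKM + 1), where the added 1 makes this approximate. Quantile normalization is not such a factor. In 3 of the 15 pairs the 4 NP and the 4 P values did not overlap, against 5.36% of all pairs of genes with a mean above 10 FPKM. Each of the 3 contained Khdc3, so they are not independent of each other, and the uncertainty of its row noted above applies to all of them. Each gave p = 0.0286 in a 2-sided exact permutation test, unadjusted, which is the smallest value possible.

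Ooep exceeded Khdc3 by 2.86, 2.64, 3.00 and 2.83 on the log2 scale in NP replicates 1 to 4, and by 1.30, 1.86, 1.68 and 1.44 in P replicates 1 to 4. The NP values were close to each other (mean 2.83 ± 0.15, SD, n = 4), all P values lay below them (1.57 ± 0.25), and the means differed by −1.26. Tle6 exceeded Khdc3 by 1.69, 2.11, 1.17 and 2.08 in NP, whereas the differences in P were 0.84, 0.40, −0.04 and 0.01. In P the 2 genes were thus near one level in replicates 3 and 4, and the means differed by −1.46 between the datasets. The log2 ratio of Khdc3 over Zbed3 was −3.36, −4.08, −4.51 and −3.54 in NP and 0.36, −2.50, −2.13 and −0.51 in P. Its means differed by 2.68, and P replicate 1 was the only library with more Khdc3 than Zbed3.

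Other ratios overlapped between the datasets. The log2 ratio of Padi6 over Zbed3 was −0.57 ± 0.44 in NP and 1.38 ± 1.51 in P (SD, n = 4 each, exact permutation p = 0.0571, unadjusted), the overlap being between NP replicate 1 and P replicate 2. Ooep over Zbed3 differed by 1.41 between the means, with the same exact permutation p of 0.0571. Khdc3 over Padi6, a pair with higher P than NP means, differed by 0.72 (exact permutation p = 0.0571).

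**Figure D4:**
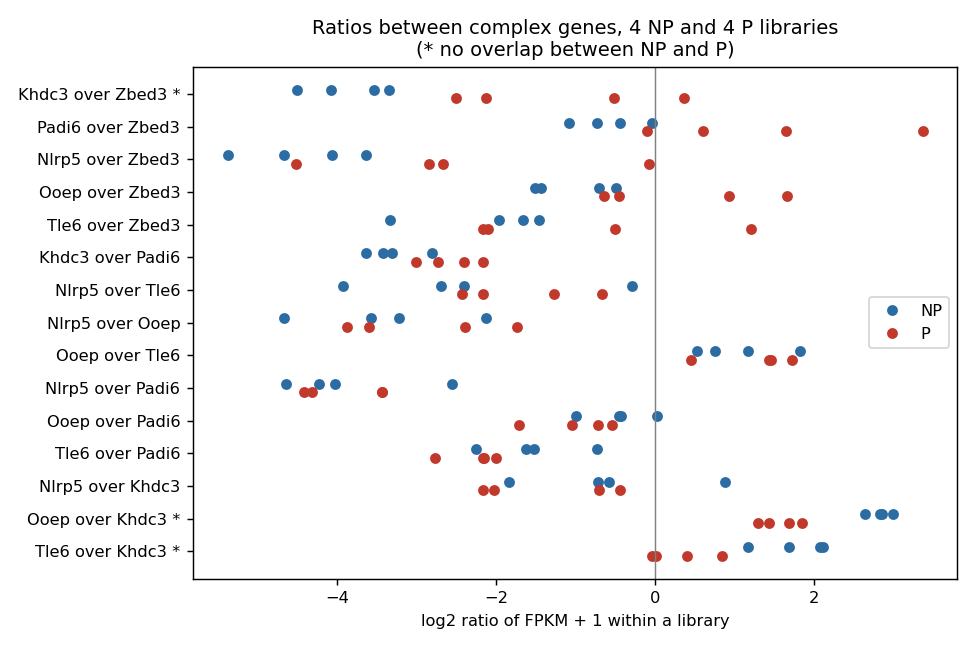
Log2 ratio of FPKM + 1 within each library for the 15 pairs of members, with 1 point per NP and P library. In the pairs Ooep over Khdc3, Tle6 over Khdc3 and Khdc3 over Zbed3 the NP and P points do not overlap, and in the other 12 they do.

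For each member the genes with the most similar pattern over the 8 libraries were sought among 6414 genes with a mean above 10 FPKM, by the root mean square difference of log2(FPKM + 1) after centring each gene on its own mean. The nearest gene of Ooep was Sumo3 (0.214), that of Khdc3 was Ahsa1 (0.225), that of Zbed3 was Wdtc1 (0.230), that of Padi6 was Psma1 (0.245), that of Tle6 was Psma2 (0.289) and that of Nlrp5 was Nap1l4 (0.377). The next for Khdc3 were Gdf9 (0.258), a growth factor of the oocyte, and Ube2g2 (0.297), a ubiquitin-conjugating enzyme. Those for Nlrp5 were Adk (0.394) and Dnmt1 (0.428), the maintenance DNA methyltransferase. Med28, a subunit of Mediator, followed for both Ooep (0.316) and Tle6 (0.381), with Eef2k (0.384) and Alkbh7 (0.342) beside it. Gm813 and Tmem14c (0.280 each) followed for Padi6, and Tufm (0.314) and Acap3 (0.320) for Zbed3.

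Among the members themselves, Padi6 and Khdc3 had the most similar patterns (0.478), followed by Padi6 and Ooep (0.488) and by Ooep and Tle6 (0.498). Zbed3 was at 1.03 (Ooep) to 1.61 (Khdc3) from the other members, and of the 6414 genes these ranked 1202 and 4299 in nearness to it. Such distances were not particular to Zbed3, since Nlrp5 and Tle6 were 1.10 apart and Nlrp5 and Khdc3 0.953. These distances describe 8 libraries that share their preparation.

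Partners of the complex, genes whose products are reported to bind, modify or act with its members, had a median log2 fold change of −0.16 over the 11 tested of 12, with 5 above and 6 below 0. By limma, 0 passed the adjusted threshold, and 2 passed an unadjusted p of 0.05, both lower in P, where 9.47% of all tested genes passed it in that direction and 0.476% in the other. Nlrp2, a relative of Nlrp5 reported in the complex, had means of 67.2 ± 19.1 FPKM in NP and 162 ± 105 in P (SD, n = 4 each) and a log2 fold change of 1.11 (standard error 0.58). Nlrp4f, another NLRP partner, was at 429 ± 183 in NP and 491 ± 145 in P, close to the level of Tle6. Axin1, a scaffold of the Wnt pathway and the class of protein that ZBED3 binds, had 62.7 ± 6.79 FPKM in NP and 33.6 ± 17.7 in P. Every NP library of Axin1 lay above every P library, as for Chek2 and for 5.92% of tested genes, and its log2 fold change was −1.05 (limma, adjusted p = 0.563).

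Lower partners were less even between libraries. Prkaca, a catalytic subunit of protein kinase A, which is reported to phosphorylate TLE6, had 26.8 ± 25.5 FPKM in NP and 4.23 ± 3.70 in P (SD, n = 4 each; limma, log2 fold change −2.28, standard error 0.99, adjusted p = 0.478). Chek2, a checkpoint kinase, was at 13.7 ± 8.87 in NP and was listed at 0 in all P libraries (limma, adjusted p = 0.376). The actin regulator Cfl1 had means of 104 and 76.5 FPKM in NP and P, and the DNA repair gene Parp1 had 20.8 in NP and 25.3 in P.

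The gene families of the members were expressed very unevenly. Of the 27 relatives, 25 were tested, with a median log2 fold change of −0.01 and with 12 above and 13 below 0, and 0 passed the adjusted threshold in limma while 1 in each direction passed an unadjusted p of 0.05, against the 0.476% higher and 9.47% lower in P among all tested genes. Among the peptidylarginine deiminases, Padi6 stood at 1107 FPKM in NP, where Padi1, Padi2 and Padi4 had means of 3.46, 0.719 and 0.600 FPKM and Padi3 was listed at 0. In the TLE family, co-repressors of the Groucho type, the means were 37.0 in NP and 10.0 in P for Tle4, and 6.81 and 14.4 for Tle1. The short member Tle5, listed as Aes, had 55.5 ± 51.3 FPKM in NP and 3.70 ± 1.63 in P (SD, n = 4 each), and its NP libraries all lay above its P libraries (limma, log2 fold change −2.93, standard error 0.91, adjusted p = 0.405). Tle6 was thus the most abundant member of its family in both datasets. The BED zinc finger genes Zbed4 and Zbed6 were at 7.82 and 6.20 FPKM in NP, far under Zbed3.

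Several relatives of Nlrp5 exceeded it in abundance, and among the listed relatives of Khdc3 only Khdc1b exceeded that gene. Nlrp14 had 427, 264, 629 and 548 FPKM in NP replicates 1 to 4 and 2469, 635, 800.2 and 1918 in P replicates 1 to 4. It was the only relative with every P library above every NP library, a pattern seen in 0.357% of tested genes, although the gap between NP replicate 3 and P replicate 2 was small. Its log2 fold change was 1.49 with a standard error of 0.59 (limma, unadjusted p = 0.0251, adjusted p = 0.447). Nlrp4b had means of 316 ± 100.4 in NP and 666 ± 206 in P (SD, n = 4 each; limma, log2 fold change 1.05, adjusted p = 0.521). Of the KH-domain relatives, Khdc1b was the most abundant, with means of 1083 FPKM in NP and 1154 in P. Dppa5a (118 and 164), Khdc1a (104 and 116) and Khdc1c (109 and 123) had lower means than Khdc3 in both datasets.

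**Figure D5:**
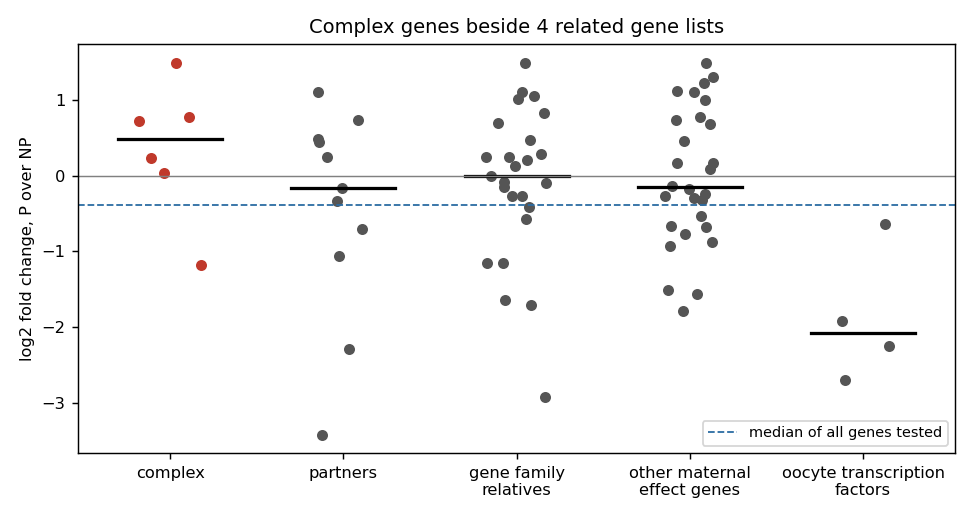
Log2 fold change of P over NP on the log2(FPKM + 1) scale for the members, their partners, their relatives, other maternal effect genes and oocyte transcription factors, with 1 point per tested gene and a line at each list's median. The medians are 0.48, −0.16, −0.01, −0.15 and −2.08, against −0.39 for all tested genes.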

How the data were processed

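RNA-seq was measured in 4 NP and 4 P libraries of mouse NEBD-stage oocytes, with groups and replicate numbers taken from the sample titles. RNA was depleted of ribosomal RNA, primed with random and oligo(dT) primers and amplified before library preparation, so values describe amplified cDNA from small inputs. Per the labels and the methods of the study, reads were trimmed with Trim Galore 0.4.1, checked with FastQC 0.11.5 and mapped to GRCm38 with HISAT2 2.0.5. The authors quantified genes as FPKM, normalized for gene length and for the reads of each library, and deposited these values without log transformation. Whether the quantification used strand is not stated in those sources. A deposited table of the authors' DESeq2 comparison, with log2 fold changes and p-values, and a deposited table of expressed genes with means and ratios were not used.

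Genes whose mean FPKM exceeded 0.1 in NP, in P or in both were tested 2-sided on log2(FPKM + 1) with limma 3.58.1 (lmFit, and eBayes with a trend) in R 4.3.3, and p-values were adjusted after Benjamini and Hochberg, with calls at an adjusted p below 0.1. A pseudocount of 1 understates the change of low genes. Single values were compared by exact permutation over 70 assignments in Python 3.11.15 with scipy 1.17.1, numpy 2.4.6 and pandas 2.3.3. Whole reads were recovered from the steps of the FPKM values, with 81.1% to 82.7% of the values of a library coming out whole (tolerance 0.01, plus 2e-06 of the value) where the gene length was annotated. The scaling numbers found were 1299377 to 7594637 reads in NP and 2677946 to 4699328 in P. Because these are values per length with steps that depend on the gene, no count model was fitted. The lengths of Nlrp5, Khdc3 and Zbed3 came from a search and not from the annotation. Sequences are from GENCODE M21 on GRCm38, and 12819 tested genes were matched to it.

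Named genes are the 6 members, the genes of the lists of partners, relatives, other maternal effect genes and oocyte transcription factors with a mean FPKM above 1 in a dataset, named in part, and the 3 nearest genes of each member. Members, lists and markers were chosen with earlier results of these data known. The alternatives tried were another pseudocount, other filters, quantile normalization, median centring, a replicate block, leaving out each library and scaling to 1 FPKM sum. Figures were drawn with matplotlib 3.10.9.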

Additional observations from a re-analysis of the deposited data

How the results depend on the processing

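The number of genes called by limma over all tested genes was 3. It was 5 with a pseudocount of 0.1, 5 with a filter at a mean FPKM of 1, and 1 after scaling each library to 1 FPKM sum, an alternative chosen after seeing the data. It was 0 without a filter, with quantile normalization and with median centring, where 1510, 942 and 2896 genes passed an unadjusted p of 0.05 by limma. Leaving out 1 library at a time gave 0 to 5. The log2 fold change of Ooep was −0.27 without P replicate 4, and that of Tle6 was −0.42 without NP replicate 3, −0.37 without P replicate 1 and −0.41 without P replicate 4. Over all left-out libraries they ranged from −0.27 to 0.71 for Ooep and from −0.42 to 0.66 for Tle6. The other 4 members kept their direction under every alternative run. The same 3 pairs with Khdc3 were without overlap with a pseudocount of 0.1. Leaving out a library cannot make such a pair overlap, so their staying apart then is no check of them. The number of pairs without overlap could only stay or rise, and was 3 to 6 (5 without NP replicate 1 and 6 without P replicate 2). Median centring moved the median log2 fold change of all genes from −0.39 to 0.57 and quantile normalization moved it to −0.02. With median centring the log2 fold change was 2.45 for Khdc3 (limma, adjusted p = 0.125) and −0.22 for Zbed3. No member passed the adjusted threshold under any alternative run, but Khdc3 passed an unadjusted p of 0.05 in 8 of them and Zbed3 in 4.

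A fit that took replicate numbers as a block called 1 gene, and no member, the adjusted p by limma being 0.328 for Khdc3 and 0.351 for Zbed3 and the unadjusted p 0.0111 and 0.0202. In all 4 same-numbered comparisons Khdc3 had the higher FPKM in P and Zbed3 the higher in NP. Deviations of same-numbered libraries from their dataset means correlated at 0.139, 0.0518, 0.251 and 0.155 over 11374 genes, and those of other numbers at −0.135 to 0.136. For each P library the highest correlation was with the NP library of the same number. The NP and P pools came from the same 4 gradients, but no source states that a number marks 1 gradient in both datasets, so a pairing cannot be told from these sources. NP replicate 2 correlated best with P replicate 1.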

Other observations

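Other maternal effect genes, whose products the early embryo also inherits from the egg, had a median log2 fold change of −0.15 over 28 tested genes, with 13 above and 15 below 0. By limma 0 passed the adjusted threshold and 1, Nlrp14, passed an unadjusted p of 0.05, with the higher level in P. Among all tested genes 0.476% passed it in that direction and 9.47% in the other. Mean FPKM was more than 2-fold higher in P for 9 of them and in NP for 3, against 16.9% and 40.6% of all tested genes. Uchl1, a ubiquitin hydrolase of the oocyte, had means of 1200.2 ± 459 FPKM in NP and 3970.3 ± 3744 in P (SD, n = 4 each), and P replicate 4 alone held 9246. Zar1 was at 465 ± 261 in NP and 1068 ± 534 in P. Dppa3, which protects the maternal methylome, was at 372 ± 216 and 891 ± 677. Tet3, the dioxygenase that oxidises methylated cytosine in the zygote, was at 78.8 ± 18.5 and 192 ± 88.8, with P replicate 1 (61.7) apart from P replicates 2, 3 and 4 (218 to 259). Zfp57 and Sebox had the larger mean in NP, with 499.9 ± 138 against 300.4 ± 114 and 257 ± 183 against 109 ± 93.8. The values of Uchl1, Zar1, Dppa3, Tet3, Zfp57 and Sebox overlapped between the datasets. Those of Nlrp14 did not, every P library being above every NP library, as for 0.357% of tested genes.

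Transcription factors that are known to drive the expression of complex genes and of other oocyte genes had lower means in P. Of 5, Sohlh1 was listed at 0 in every library, and the 4 tested had a median log2 fold change of −2.08 and 4 values below 0, with 0 past the adjusted threshold in limma and 2 past an unadjusted p of 0.05. Among all tested genes 28.6% had a log2 fold change above 0 and 9.47% passed the unadjusted threshold with the lower level in P. Nobox had 406, 591, 308 and 559.7 FPKM in NP replicates 1 to 4 and 109, 63.2, 46.6 and 241 in P replicates 1 to 4, with every NP library above every P library, a pattern found in 5.92% of tested genes. Its log2 fold change was −2.25 with a standard error of 0.60 (limma, unadjusted p = 0.00226, adjusted p = 0.376). Figla, at 12.8 ± 4.20 FPKM in NP and 1.36 ± 1.47 in P (SD, n = 4 each), did not overlap either (limma, log2 fold change −2.69, adjusted p = 0.405). Lhx8 had means of 57.5 and 43.9 FPKM in NP and P, with overlapping values. Nobox was thus at a level near that of Tle6 in NP, and under every P mean of the members.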
